A study of Mus musculus with 6 samples.

Results

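Tmem127 and 9 regulators of mTOR complex 1 (mTORC1) were followed through 6 hippocampal gene tables. The genes were taken by symbol, as rows whose first column was Tmem127, Mtor, Rptor, Rheb, Tsc1, Tsc2, Deptor, Akt1s1, Ddit4 or Rragc. All 10 were present among 15616 listed gene names, and all 10 passed the filter on low values. Tmem127 was chosen by its FPKM difference between the labels in these same libraries, so that difference is described here and not tested. The other members were taken for their place in the pathway, with earlier results of these data known.

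The libraries came from whole mouse hippocampus at 6 months of age. Of these, 3 were labelled APP/PS1, mice that carry the APP695swe and PS1-dE9 mutations, and 3 were labelled wild type (WT). The labels name neither the mouse line nor the promoter of the transgenes, and they do not say whether each library was 1 animal. In the widely used line with these alleles the prion protein promoter drives the transgenes. Values are FPKM (fragments scaled to transcript length and library size), which can be compared between genes because they are given per length. Hippocampal neuron markers were listed in all libraries, the lowest at 12.7 FPKM. In whole tissue, fewer cells of a type and less RNA per cell cannot be told apart.

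mTORC1 is a kinase complex on the lysosome surface that links amino acids, growth factors and energy state to protein synthesis, and restrains autophagy. Rag GTPases bring it to the lysosome and the GTPase Rheb switches it on there, while the TSC complex switches Rheb off. Neurons use it for activity-dependent synthesis of synaptic proteins. TMEM127 is a membrane protein of endosomes and lysosomes whose inherited loss predisposes people to phaeochromocytoma, and cells without it have raised mTORC1 signalling.

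The promoter of Tmem127 is shown because this gene carried the largest difference, and that of Ddit4 because it had the largest difference among the other members. Both come from RefSeq (build GRCm38.p6), run 5′ to 3′ on the strand of the gene, and hold 250 bases before and 50 bases after the annotated start. Capitals mark the bases from the start onwards. Tmem127 lies on the plus strand at chr2:127247698-127247997, and Ddit4 on the minus strand at chr10:59951721-59952020.
Tmem127: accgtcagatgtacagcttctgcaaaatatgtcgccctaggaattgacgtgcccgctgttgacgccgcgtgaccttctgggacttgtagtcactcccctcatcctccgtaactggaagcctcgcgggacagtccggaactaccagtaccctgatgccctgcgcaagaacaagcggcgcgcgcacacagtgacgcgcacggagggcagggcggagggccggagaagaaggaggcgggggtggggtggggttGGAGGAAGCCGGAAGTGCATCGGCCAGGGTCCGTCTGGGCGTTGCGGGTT
Ddit4: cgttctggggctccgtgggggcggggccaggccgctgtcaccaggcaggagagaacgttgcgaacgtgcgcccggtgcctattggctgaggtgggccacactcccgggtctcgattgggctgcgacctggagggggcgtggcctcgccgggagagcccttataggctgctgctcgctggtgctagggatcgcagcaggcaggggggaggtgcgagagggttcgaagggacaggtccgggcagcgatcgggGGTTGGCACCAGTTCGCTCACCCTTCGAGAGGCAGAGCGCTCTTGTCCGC
Both windows were rich in G and C, 63.3% for Tmem127 and 69.0% for Ddit4, against a median of 52.7% over 32851 promoters. They held 27 and 26 CpG dinucleotides, against a median of 7.

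The motif CACGTG, a core that the lysosomal factor TFEB and other E-box factors bind, was searched on both strands in the 9 members with a promoter in the table. It stood in 2 of them, Rheb and Rragc, and in 7.15% of all promoters. The stretches around it are shown with the motif in capitals, from chr5:24842430-24842479 on the minus strand for Rheb and chr4:123917299-123917348 on the plus strand for Rragc.
Rheb: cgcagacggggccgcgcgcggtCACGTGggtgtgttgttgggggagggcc
Rragc: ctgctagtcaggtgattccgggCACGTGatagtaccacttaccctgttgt
The motifs TGACGTCA (in 1.79% of promoters) and TGACTCA (in 5.2%), searched on both strands, stood in 0 of the 9 windows. A match of letters is a description and no binding site.

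App and Prnp went against the label in 1 library of each group. Some results, among them those of Tmem127, Ddit4 and Deptor, are also given without these libraries. App was listed at 153.1, 71.0 and 166.2 FPKM in the APP/PS1 replicates 1 to 3, against 69.8, 68.5 and 145.6 FPKM in the WT replicates 1 to 3. Prnp was listed at 471.6, 198.6 and 463.8 FPKM in the APP/PS1 replicates, against 188.1, 181.5 and 457.2 FPKM in the WT replicates. The library labelled APP/PS1 replicate 2 was thus low in both genes, and the library labelled WT replicate 3 high in both.

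Tmem127 had 21.1, 21.9 and 21.9 FPKM in the libraries labelled APP/PS1, against 3.52, 3.57 and 2.93 FPKM in the libraries labelled WT. The groups did not overlap, and the libraries that App and Prnp contradicted sat with their label. Tmem127 was chosen by its difference between the labels, so this placement is no check of them. Its mean was 21.6 ± 0.485 FPKM in APP/PS1 and 3.34 ± 0.358 FPKM in WT (SD, n = 3 each), 6.48 times higher in APP/PS1. The log2 fold change on log2(FPKM + 1), a scale that understates changes of low genes, was 2.39. In the 4 libraries left after dropping APP/PS1 replicate 2 and WT replicate 3 it was 2.31.

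The place of Tmem127 among the genes changed with its level. It lay at the 89.1, 89.5 and 89.9 percentile of all listed rows in the APP/PS1 libraries, against the 43.1, 43.8 and 38.1 percentile in the WT libraries. Within the 10 members it had rank 1 in each APP/PS1 library, against ranks 10, 10 and 9 in the WT libraries. Its ratio to Mtor, the kinase, ran from 1.26 to 1.33 in APP/PS1 and from 0.180 to 0.212 in WT.

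**Figure D1:**
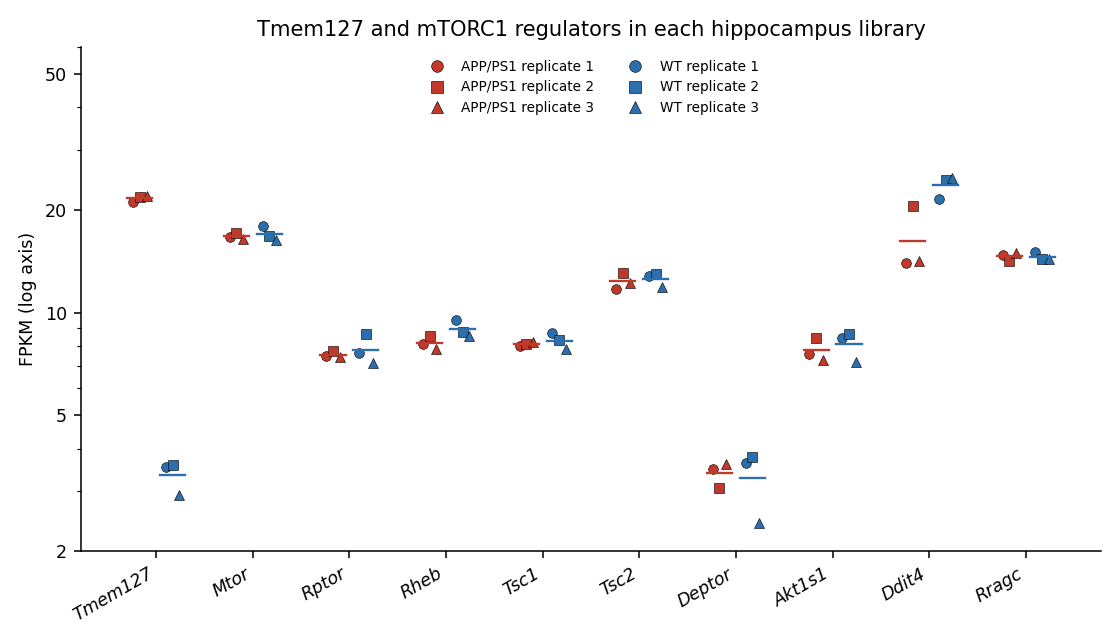
FPKM on a log axis of Tmem127 and 9 mTORC1 regulators, 1 point per library (circle, square and triangle for replicates 1 to 3), APP/PS1 in red left of WT in blue, lines at group means. Tmem127 sits near 21.6 FPKM in APP/PS1 and near 3.34 FPKM in WT, while the groups of most other members lie side by side.

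The other 9 members showed no step of that size. By limma 0 of the 9 passed an adjusted p of 0.05, where 0.0219% of the 13700 genes tested did, and 1 of the 9, Ddit4, had an unadjusted p under 0.05, where 6.69% of all genes did. Their log2 fold changes had a median of -0.029, against -0.00089 over all genes tested, with 7 negative and 2 positive. The APP/PS1 and WT libraries lay apart for 2 of the 9, Rheb and Ddit4, both lower in APP/PS1, where 6.51% of all genes lay apart in that direction and 11.9% in either.

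Within the complex itself, Mtor had 16.7, 17.1 and 16.4 FPKM in APP/PS1 libraries, against 17.9, 16.8 and 16.3 FPKM in WT libraries. The groups overlapped, with a log2 fold change of -0.020 (95% interval -0.15 to 0.11, adjusted p = 0.974). Rptor, the scaffold that recruits substrates, had 7.48, 7.73 and 7.40 FPKM in APP/PS1 libraries, against 7.61, 8.66 and 7.11 FPKM in WT libraries. WT replicate 2 was its highest library and WT replicate 3 its lowest, so the APP/PS1 values lay within the WT range (log2 fold change -0.039, 95% interval -0.22 to 0.14).

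Akt1s1 encodes PRAS40, an inhibitory subunit that Akt phosphorylates. It had 7.56, 8.45 and 7.26 FPKM in APP/PS1 libraries, against 8.42, 8.68 and 7.18 FPKM in WT libraries, with overlap (log2 fold change -0.053, 95% interval -0.26 to 0.15). Deptor, the other inhibitory subunit, was the lowest member on average in both groups. It had 3.47, 3.07 and 3.60 FPKM in APP/PS1 libraries, against 3.62, 3.77 and 2.42 FPKM in WT libraries. Its low value in WT replicate 3 widened the interval (log2 fold change 0.052, 95% interval -0.26 to 0.37), and the sign turned to -0.10 without that library and to -0.048 without it and APP/PS1 replicate 2.

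Upstream of the complex, Tsc1 and Tsc2 form the brake on Rheb. Tsc1 had 8.0001, 8.09 and 8.20 FPKM in APP/PS1 libraries, against 8.71, 8.30 and 7.85 FPKM in WT libraries. Tsc2 had 11.8, 13.1 and 12.2 FPKM in APP/PS1 libraries, against 12.8, 13.02 and 11.9 FPKM in WT libraries. Both overlapped, with log2 fold changes of -0.029 (95% interval -0.16 to 0.11) and -0.025 (95% interval -0.17 to 0.12).

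Rheb had 8.12, 8.54 and 7.84 FPKM in APP/PS1 libraries, against 9.50, 8.81 and 8.57 FPKM in WT libraries. The groups lay apart by a narrow margin, APP/PS1 replicate 2 against WT replicate 3, and the log2 fold change was -0.12 (95% interval -0.26 to 0.027, adjusted p = 0.808). Over all alternatives the log2 fold change of Rheb ran from -0.18 to -0.080, and its lowest adjusted p by limma was 0.553. Rragc, a Rag GTPase, was the steadiest member, its highest library 1.06 times its lowest. It had 14.8, 14.1 and 15.0 FPKM in APP/PS1 libraries, against 15.1, 14.4 and 14.3 FPKM in WT libraries (log2 fold change 0.0032, 95% interval -0.12 to 0.12).

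Ddit4 encodes REDD1, a protein induced by stress and glucocorticoids that acts through the TSC complex to restrain mTORC1. It had 14.0, 20.6 and 14.1 FPKM in APP/PS1 libraries, against 21.6, 24.5 and 24.9 FPKM in WT libraries. The libraries lay apart, APP/PS1 replicate 2 close to the WT values and APP/PS1 replicates 1 and 3 well under them. The log2 fold change was -0.53 (95% interval -0.89 to -0.18), and it did not pass over all genes (adjusted p = 0.611). The exact two-sided permutation test gave p = 0.1 for Ddit4 and for Rheb, the smallest value that 3 against 3 libraries allow. Without APP/PS1 replicate 2 Ddit4 passed (log2 fold change -0.71, adjusted p = 0.0374), and without that library and WT replicate 3 it did not (log2 fold change -0.67, adjusted p = 0.0940). Over all alternatives its adjusted p ranged from 0.0374 to 0.9995. The mitochondrial share of FPKM lay apart between the labels, with 10.3%, 9.70% and 11.3% in APP/PS1 libraries, against 9.30%, 8.87% and 9.31% in WT libraries. Here too APP/PS1 replicate 2 lay nearest to WT. The part of this share in the result for Ddit4, or in any other difference between the labels, was not tested.

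**Figure D2:**
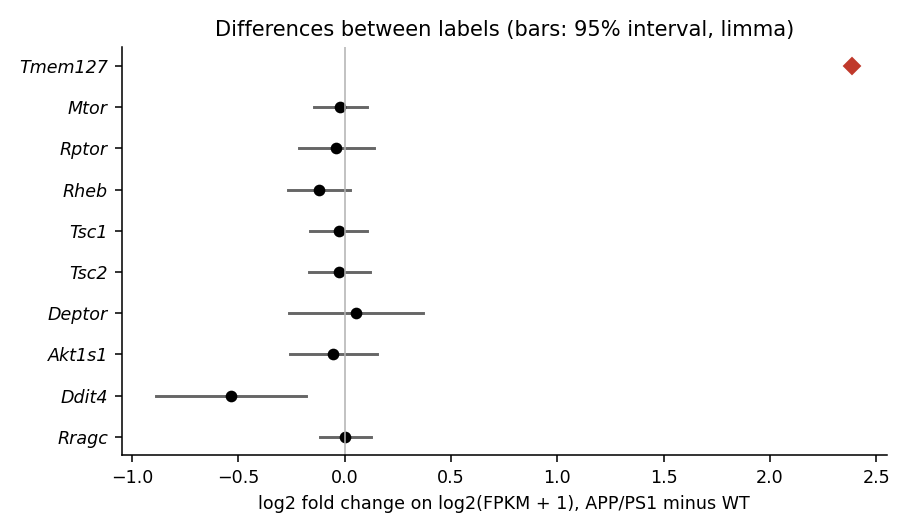
log2 fold change on log2(FPKM + 1), APP/PS1 minus WT, of each member, with bars for the 95% interval from limma. Tmem127, drawn as a diamond with no interval because it was chosen for its difference, stands at 2.39, while the intervals of the other members include 0 except that of Ddit4 (-0.89 to -0.18).

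By level, the members other than Tmem127 and Ddit4 kept their order in both groups. In the APP/PS1 libraries the mean FPKM ran in the order Tmem127 (21.6), Mtor (16.8), Ddit4 (16.2), Rragc (14.6), Tsc2 (12.4), Rheb (8.17), Tsc1 (8.10), Akt1s1 (7.76), Rptor (7.54) and Deptor (3.38). Ddit4 overlapped with Mtor and Rragc there, and each of Rheb, Tsc1, Akt1s1 and Rptor overlapped with its neighbour. In the WT libraries Ddit4 came first (23.6 FPKM), Mtor, Rragc, Tsc2, Rheb, Tsc1, Akt1s1 and Rptor followed in the same sequence, and Tmem127 (3.34 FPKM) and Deptor (3.27 FPKM) came last with overlapping values.

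Library by library, the mean of the other 9 members did not follow the steps of Tmem127. Their mean deviation from the 6-library mean, in log2 units, was -0.073, 0.014 and -0.069 in the APP/PS1 replicates 1 to 3, against 0.077, 0.093 and -0.043 in the WT replicates 1 to 3. Tmem127 deviated by 1.16, 1.21 and 1.21 in the same APP/PS1 libraries, against -1.13, -1.11 and -1.33 in the WT libraries. The lowest means of the 9 were in APP/PS1 replicates 1 and 3 and WT replicate 3, the libraries high in App and Prnp. This was seen after the fact and was not tested, and all these means lay within 0.10 of 0. Single genes weighed on them, Ddit4 with -0.45 and -0.43 in APP/PS1 replicates 1 and 3 and Deptor with -0.33 in WT replicate 3. The medians of the 9 in these libraries were -0.030, -0.037 and -0.054.

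Sesn3 encodes a sestrin, a stress-induced inhibitor of mTORC1, and was noticed after the values were seen. It too had a low and a high level, at 3.55, 13.8 and 3.45 FPKM in APP/PS1 libraries, against 3.58, 14.3 and 14.1 FPKM in WT libraries. The low libraries were APP/PS1 replicates 1 and 3 and WT replicate 1, so the levels followed neither the label nor App and Prnp. Its difference between labels did not pass (log2 fold change -0.61, 95% interval -2.31 to 1.10, adjusted p = 0.924). The gap between its levels took up 94.8% of its range on the log2 scale, against 89.3% for Tmem127 and a median of 43.5% over all genes tested. The related Sesn1 and Sesn2 had no such gap, ranging from 10.8 to 12.8 and from 3.73 to 4.57 FPKM.

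Gaps this wide were rare. Of 13700 genes tested, 124 (0.905%) had neighbouring libraries at least 1 log2 unit apart, and in 64 of these a single library stood apart. In 21 the gap divided the libraries 3 against 3, and in 2 of these, Tmem127 and Cdc42se1, it followed the label. App, Prnp and Sesn3 were among the other 19. The label split is a share of 0.1 of all ways to divide 6 libraries 3 against 3, and 2 of 21 lay near that share. App and Prnp had the same split, so the 21 genes are not independent and the share carries no test. Tmem127 was chosen for its difference between the labels, so its place in this count follows from that choice.

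**Figure D3:**
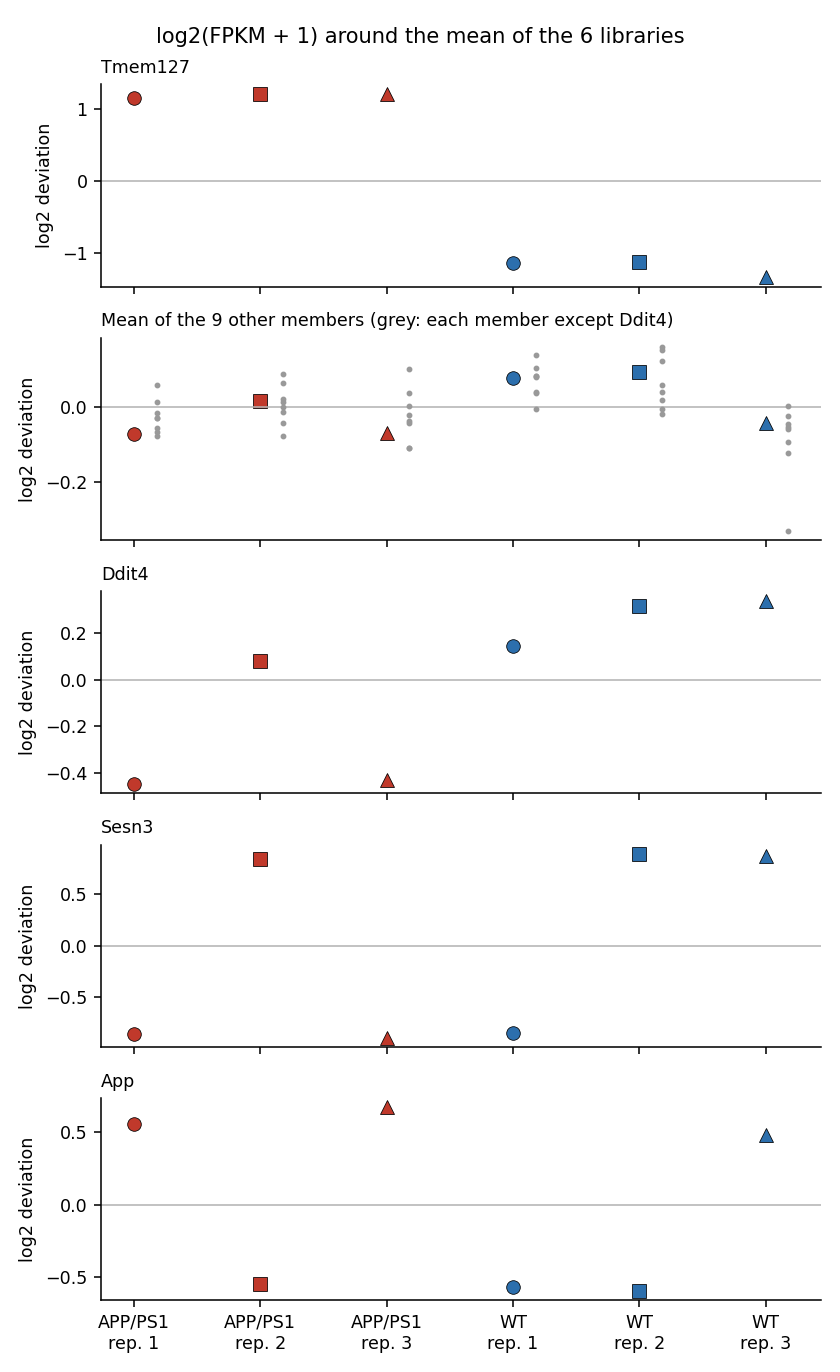
log2(FPKM + 1) around the mean of the 6 libraries for Tmem127, the mean of the 9 other members, Ddit4, Sesn3 and App, 1 coloured point per library with APP/PS1 left of WT and each panel on its own scale. Tmem127 parts the libraries by label, Sesn3 sets APP/PS1 replicate 2 beside WT replicates 2 and 3, and App sets WT replicate 3 beside APP/PS1 replicates 1 and 3.

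The deposited table lists 3 genes 1, 2 and 4 places before Tmem127 in RefSeq's gene order, Ciao1, Snrnp200 and Itpripl1, and 3 genes 1, 8 and 9 places after it, Stard7, Fahd2a and Kcnip3. The groups of all 6 overlapped, where 11.9% of all genes tested lay apart in either direction. The genes between them have no values under their RefSeq symbols in the deposited data. Ciao1 encodes a factor of cytosolic iron-sulphur protein assembly and lies on the other strand, its RefSeq promoter window sharing 231 of 300 bases with that of Tmem127 printed above. Ciao1 had 8.35, 10.6 and 9.31 FPKM in APP/PS1 libraries, against 7.27, 9.43 and 9.53 FPKM in WT libraries. The groups overlapped (log2 fold change 0.099, 95% interval -0.18 to 0.38, adjusted p = 0.928), and the sign turned to -0.015 without WT replicate 1.

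Of the 6 listed neighbours 0 passed, where 0.0219% of all genes tested did. Stard7, on the other side and known for carrying phosphatidylcholine to mitochondria, had 6.76, 6.76 and 7.73 FPKM in APP/PS1 libraries, against 6.51, 10.5 and 6.90 FPKM in WT libraries. WT replicate 2 alone was high. Snrnp200, a spliceosomal helicase, had 21.6 ± 0.446 FPKM in APP/PS1 and 22.5 ± 0.376 FPKM in WT (SD, n = 3 each). The log2 fold changes of Itpripl1, Fahd2a and Kcnip3 were 0.13, 0.084 and -0.025.

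**Figure D4:**
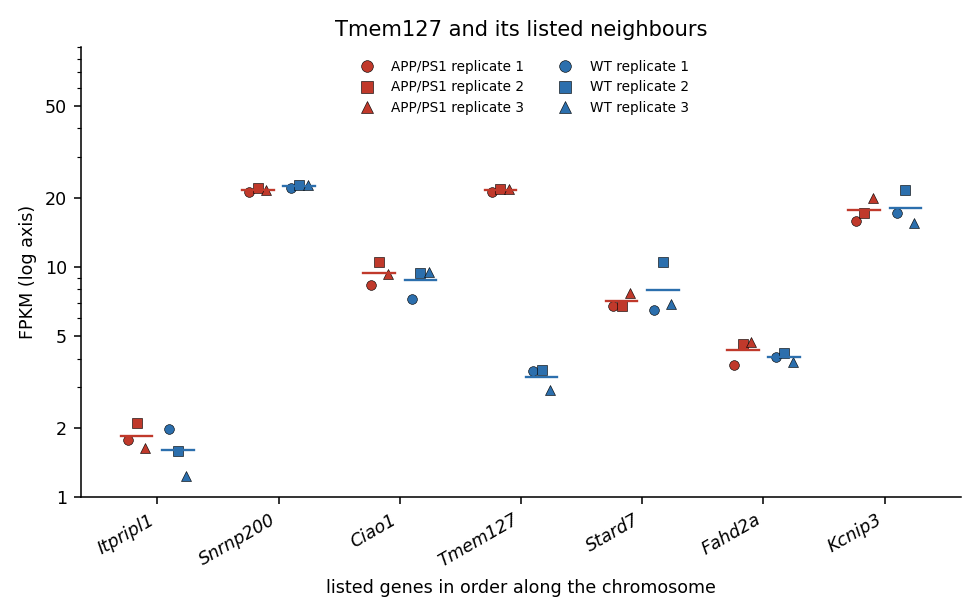
FPKM on a log axis of Tmem127 and the 3 listed genes on each side of it, in chromosome order, 1 point per library, APP/PS1 in red left of WT in blue, lines at group means. Tmem127 alone parts the libraries, near 21.6 FPKM in APP/PS1 and 3.34 FPKM in WT, while all 6 neighbours overlap.

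Genes whose pattern over the 6 libraries was most like that of Tmem127 were sought by Pearson correlation on log2(FPKM + 1) among 1926 genes that ranged over at least 0.5. The points form a low and a high cluster, so the coefficient measures likeness to a step by label and carries no test. The closest were Socs6, a suppressor of cytokine signalling (r = 0.983), Chpt1, an enzyme of phosphatidylcholine synthesis (r = 0.980), Ccl27a, a chemokine (r = 0.958), Nme7, of the nucleoside diphosphate kinase family (r = 0.953), and Tmem161a (r = 0.950). None of them reached the step of Tmem127, and Nme7 came nearest at 8.38 ± 1.60 FPKM in APP/PS1 and 2.996 ± 0.364 FPKM in WT (SD, n = 3 each).

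The closest mirror images were Cdc42se1, an effector of Cdc42 (r = -0.994), Tspan5, a tetraspanin (r = -0.982), Pdk4 (r = -0.978), Adarb1, an RNA-editing enzyme (r = -0.971), and Pyroxd2 (r = -0.968). Pyroxd2 had 0.488, 0.596 and 0.679 FPKM in APP/PS1 libraries, against 1.13, 1.11 and 1.30 FPKM in WT libraries. It met the filter of 1 FPKM in 3 libraries only through the WT libraries, so the filter bears on its place here. Pdk4, a kinase that inhibits pyruvate dehydrogenase, had 3.72, 3.66 and 3.86 FPKM in APP/PS1 libraries, against 5.32, 5.25 and 6.13 FPKM in WT libraries. The 9 mTORC1 members had coefficients between -0.823 for Ddit4 and 0.211 for Deptor, with Rheb at -0.736.

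The wider pathway was described with 8 lists, leaving Tmem127 out. By limma 0 of 133 tested genes passed over all genes, and 8 had an unadjusted p under 0.05 (6.02%, against 6.69% of all genes). Of the 133, 4 lay apart with APP/PS1 higher, where 5.38% of all genes did, and 9 with APP/PS1 lower, where 6.51% did (9.77% together, against 11.9%). Their median log2 fold change was -0.012, against -0.00089 over all genes.

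Among 12 subunits and assembly factors of the mTOR complexes the median log2 fold change was 0.0012, with 6 positive and 6 negative. Tti2, which helps to assemble the kinase, had 1.98, 1.96 and 1.92 FPKM in APP/PS1 libraries, against 2.46, 2.32 and 2.49 FPKM in WT libraries, without overlap (log2 fold change -0.21, adjusted p = 0.642). Rictor, the scaffold of mTOR complex 2, had 8.33, 8.19 and 7.98 FPKM in APP/PS1 libraries, against 7.63, 7.54 and 7.87 FPKM in WT libraries. These also lay apart, on the higher side (log2 fold change 0.079, adjusted p = 0.864). Prr5l lay apart on the higher side too (log2 fold change 0.14), while Tti1 overlapped (-0.12). Of the 12, 2 lay apart higher and 1 lower (25%, against 11.9% of all genes). In the list of the TSC complex and Rheb, 5 genes with a median of -0.025, Rhebl1 and Tbc1d7 stood at 0.11 and 0.064.

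Of 27 genes of the Rag GTPases, Ragulator and amino acid sensing, 12 were positive and 15 negative, with a median of -0.0079. Flcn encodes folliculin, which acts on RagC and RagD, and had 5.30, 6.58 and 6.41 FPKM in APP/PS1 libraries, against 7.74, 7.08 and 7.24 FPKM in WT libraries. The libraries lay apart, but Flcn did not pass (log2 fold change -0.24, adjusted p = 0.695). Lamtor5 and Lamtor1, of the Ragulator that anchors the Rags, had log2 fold changes of -0.15 and -0.13, and Wdr24, of the GATOR2 complex, 0.13. Lamtor5 also lay apart, lower in APP/PS1, and the share of the list apart was 7.41%, against 11.9% of all genes.

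Upstream, 22 genes of insulin signalling, Akt and the energy sensor AMPK had a median of 0.012, with 12 positive and 10 negative. An unadjusted p under 0.05 by limma was found for 4 of the 22 (18.2%, against 6.69% of all genes), and 0 passed. The libraries lay apart for 1 on the higher and 2 on the lower side (13.6%, against 11.9% of all genes). Irs2, an insulin receptor substrate, had 17.7, 21.1 and 16.1 FPKM in APP/PS1 libraries, against 23.3, 23.2 and 25.6 FPKM in WT libraries. Like Ddit4 it was lower without overlap, with APP/PS1 replicate 2 nearest to WT (log2 fold change -0.38, adjusted p = 0.547). Over all alternatives the adjusted p of Irs2 by limma ranged from 0.129 to 0.9995. Pik3r1, a regulatory subunit of PI3 kinase, had 16.99, 16.7 and 17.4 FPKM in APP/PS1 libraries, against 15.2, 15.3 and 15.4 FPKM in WT libraries (log2 fold change 0.14, adjusted p = 0.642). Ddit4l, the paralog of Ddit4, had 4.45, 4.43 and 3.64 FPKM in APP/PS1 libraries, against 3.05, 3.87 and 2.78 FPKM in WT libraries. Its groups overlapped and its sign was opposite to that of Ddit4 (log2 fold change 0.29, adjusted p = 0.728).

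Downstream, 15 tested genes of substrates and translation had a median of -0.015, and 0 of them lay apart, where 11.9% of all genes did. Rps6kb1, which encodes S6 kinase, had 7.25 ± 0.209 FPKM in APP/PS1 and 6.81 ± 0.236 FPKM in WT (SD, n = 3 each). Eif4a1, Grb10 and Pdcd4 had log2 fold changes of -0.16, 0.16 and 0.12. The 26 genes of autophagy start and its transcription factors had a median of -0.0079, with Uvrag at 4.06 ± 0.123 FPKM in APP/PS1 and 4.72 ± 0.247 FPKM in WT (SD, n = 3 each, adjusted p = 0.705). Pik3r4, Wipi1 and Map1lc3b stood at 0.11, 0.099 and -0.17. Of the 26, Wipi1 lay apart higher in APP/PS1, and Uvrag and Map1lc3b lower (11.5%, against 11.9% of all genes).

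The list of Atf4, a transcription factor that mTORC1 and cell stress raise, and its targets had the median farthest from 0 of the 8. Of 16 tested genes 12 were negative and 4 positive, where 50.4% of all genes were negative, and the median was -0.10. An unadjusted p under 0.05 was found for 1 of the 16 (6.25%, against 6.69% of all genes). Atf4 itself had 35.4, 37.3 and 40.1 FPKM in APP/PS1 libraries, against 39.9, 44.2 and 43.1 FPKM in WT libraries, with overlap (log2 fold change -0.17, adjusted p = 0.705). Asns, asparagine synthetase, had 16.6 ± 0.719 FPKM in APP/PS1 and 18.5 ± 1.34 FPKM in WT (SD, n = 3 each). Slc3a2, part of a leucine transporter, and Nupr1 had log2 fold changes of -0.12 and -0.27. Slc3a2 was the 1 gene of the list that lay apart, lower in APP/PS1 (6.25%, against 11.9% of all genes).

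The 11 other genes known from hereditary phaeochromocytoma had a median log2 fold change of -0.016, and 0 lay apart, where 11.9% of all genes did. Vhl, the ubiquitin ligase subunit that marks hypoxia-inducible factors, had 10.1, 10.2 and 9.40 FPKM in APP/PS1 libraries, against 10.6, 5.46 and 6.79 FPKM in WT libraries, WT replicate 1 being the highest of all (log2 fold change 0.38, adjusted p = 0.817). This was the highest log2 fold change in the 8 lists, and the groups overlapped. Ret, a receptor tyrosine kinase, had 1.30, 1.44 and 1.05 FPKM in APP/PS1 libraries, against 0.492, 1.01 and 1.72 FPKM in WT libraries. Max and Sdha stood at -0.13 and -0.039.

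**Figure D5:**
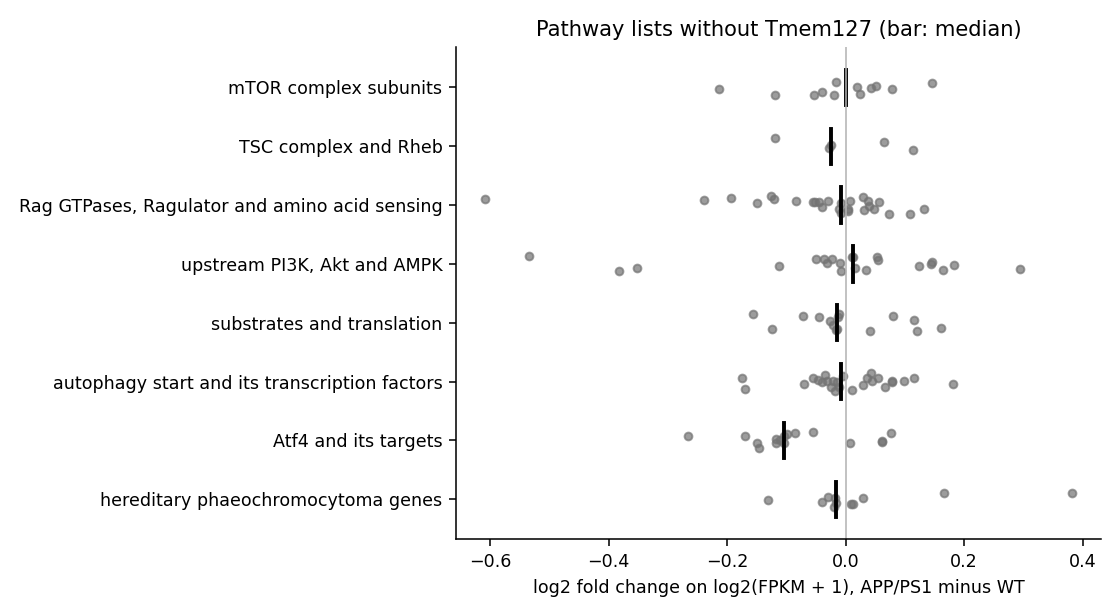
log2 fold change on log2(FPKM + 1), APP/PS1 minus WT, of each tested gene in 8 pathway lists without Tmem127, 1 point per gene and a bar at the median of each list. The medians lie between -0.10 for Atf4 and its targets and 0.012 for the upstream list, and Sesn3 is the point farthest to the left, at -0.61.

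Circular RNAs gave a separate readout. Of 257 circles listed with coordinates, 0 lay within the 10 members and 10 within 2 genes of the lists, 1 circle in Larp1 and the other 9 in a single gene. Whether circles listed by a database number alone come from the members was not analysed here. By edgeR 0 of the 10 passed and 0 by DESeq2, where 0.0469% of 2132 circles tested passed by edgeR. Of the 10, 0 had an unadjusted p under 0.05, where 5.35% of all circles did. Larp1, which encodes a translation regulator under mTORC1, had a circle with 5, 1 and 5 reads in APP/PS1 libraries, against 0, 6 and 2 reads in WT libraries. The groups overlapped, and the circle did not pass (log2 fold change 0.31, adjusted p = 0.922).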

How the data were processed

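RNA of mouse hippocampus was sequenced in 3 libraries labelled APP/PS1 and 3 labelled WT. Gene values are taken as FPKM as deposited. No header names the unit, which was inferred from decimals, from totals between 182355 and 185217 per library and from StringTie, listed with FastQC, HISAT2 and mm9 in the submitters' processing notes, with no role or version. The depth behind FPKM is unknown. The deposited circRNA tables held whole-number counts of reads, 13998 to 19584 per library, and how circles were called is not given in the sources. Per the labels' protocols, libraries were built with a TruSeq kit from Trizol RNA.

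A gene entered the tests when 3 or more libraries reached 1 FPKM (13700 of 15639 rows). Values were set on log2(FPKM + 1) and fitted with limma 3.58.1 under R 4.3.3, using its trend and robust options and no term but the label. A circRNA entered when 3 or more libraries had 2 reads (2132 of 2246), and edgeR 4.0.16 ran its quasi-likelihood test with TMM factors. Benjamini-Hochberg adjustment ran over all genes or circRNAs, with a threshold of 0.05. Hosts of circles and the neighbours of Tmem127 came from the RefSeq table of GRCm38.p6. That build differs from the listed mm9, and circle positions are those in the deposited tables. The members, lists and rules were chosen with earlier results of these data known. Names follow a rule: the members, App and Prnp, up to 4 genes per list by smallest p, 3 listed genes on each side of Tmem127, and 5 genes each way by likeness. Sesn3, Sesn1, Sesn2, Larp1 and the cell type markers fall outside it. A gene of the lists and its circles are not reported here by name.

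No library repeated another: 0% of FPKM values were identical in any pair, and circRNA counts of each pair differed by a chi-square of at least 1.90 per degree of freedom. The labels do not name separate animals, so each p reflects how far these libraries scatter, and that scatter may be technical. Marker lists of astrocytes, oligodendrocytes, microglia, endothelium, meningeal fibroblasts, choroid plexus, thalamus and hippocampal neurons had summed FPKM that overlapped between the labels in all 8 lists. Such sums weigh most the genes with the highest FPKM, and they do not show that cell composition was alike. Single markers lay apart, with Snap25, Mog, Folr1 and Kcne2 higher in APP/PS1 and Prox1 and Rbfox3 lower. Of all genes tested, 11.9% lay apart in either direction. Both tests were tried on simulated data. The alternatives covered the filters, a pseudocount of 0.1, quantile and median scaling, limma's trend and array weights, DESeq2 1.42.0 and its size factors for circRNAs, a block for the replicate number and each library left out. The fit to the 4 libraries whose App and Prnp follow their labels was chosen after the values were seen.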

Additional observations from a re-analysis of the deposited data

How the results depend on the processing

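The difference of Tmem127 kept its sign under all alternatives, between 2.32 and 2.43 with single libraries left out and at 2.66 with a pseudocount of 0.1. Tmem127 was chosen for this difference in these same libraries, so the kept sign follows from that choice and lends it no support. The median of the 9 other members ran from -0.096 to -0.0057 with single libraries left out and was -0.098 in the 4 libraries without WT replicate 3 and APP/PS1 replicate 2. The count of members past the threshold, and that of list genes, ran from 0 to 1 with single libraries left out, the 1 being Ddit4 (-0.71 without APP/PS1 replicate 2), and was 0 otherwise. Among all genes the count of 3 became 5 with array weights, 23 in the 4 libraries, and between 2 and 30 with single libraries left out. The count of circles in list genes past the threshold was 0 under every alternative run.

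The values showed no sign that the replicate number pairs the libraries, but they cannot exclude a pairing. The deviations of same-numbered libraries correlated at 0.0098, -0.056 and -0.094, and those of differently numbered libraries between -0.054 and 0.10. A fit with the replicate block put 1 gene past the threshold, against 3 without it. It put 0 of the 9 members past it, with Ddit4 at an unchanged log2 fold change of -0.53.

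Signs that turned belonged to genes that did not pass with all 6 libraries, with log2 fold changes up to 0.17 (Ret) in size there. Deptor was -0.021 with array weights and -0.048 in the 4 libraries, and Itpripl1 -0.037 in the 4 libraries. With single libraries left out the ranges crossed 0 for Mtor (-0.049 to 0.015), Rptor (-0.096 to 0.030), Tsc1 (-0.063 to 0.0037), Tsc2 (-0.063 to 0.0075), Deptor (-0.10 to 0.14), Rragc (-0.014 to 0.026), Rhebl1 (-0.019 to 0.19), Ret (-0.050 to 0.38), Sdha (-0.072 to 0.0086), Ciao1 (-0.015 to 0.17), Stard7 (-0.24 to 0.067) and Kcnip3 (-0.12 to 0.10). The cause was not tested. Sequencing depth behind FPKM is unknown, and it limits genes near 1 FPKM such as Ret and Nupr1.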
